A study of Caenorhabditis elegans with 26 samples.

Results

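The methionine cycle and the synthesis of phosphocholine by methylation were followed at the RNA level through larval life of Caenorhabditis elegans, in whole worms of the wild-type strain N2. The 10 genes were chosen by function and matched by gene name to the WormBase identifiers of the count table: metr-1, mtrr-1, mthf-1, sams-1, sams-3, sams-4, ahcy-1, cbs-1, pmt-1 and pmt-2. All 10 were in the table of 20182 genes and all 10 passed the filter on low counts in every fit, with between 768 (cbs-1) and 129480 (ahcy-1) counts per library. In the OP50 course, named here after its food, larvae that had hatched overnight were fed the bacterium OP50 on 2% NGM plates, and 16 libraries were titled every 1 h from 21 to 36 h. For the NA22 course, larvae of the same strain were grown on 2% NGM plates rich in peptone with the bacterium NA22, and 10 libraries were titled every 2 h from 18 to 36 h. Worms of the OP50 course were harvested 1 h after the time in the title, because that culture grew slowly. Times below are those of the titles. No agent or mutation distinguished the courses, and both gave RiboMinus total RNA libraries, made to lower ribosomal RNA.

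The methionine cycle turns methionine into S-adenosylmethionine (SAM), the methyl donor of the cell, and recovers methionine from the homocysteine that is left after methylation. SAM synthetases make SAM, S-adenosylhomocysteine hydrolase releases homocysteine, and methionine synthase remethylates it with a folate methyl group and vitamin B12 as cofactor, while cystathionine beta-synthase diverts it towards cysteine. Nematodes make phosphocholine, a precursor of the membrane lipid phosphatidylcholine, by methylating phosphoethanolamine with SAM, as plants do and mammals do not. Worms take up their vitamin B12 and much of their methionine from the bacteria they eat.

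Library totals ran from 16241561 to 29911888 counts in the OP50 course and from 22587893 to 36083371 in the NA22 course. Levels are counts scaled to a library total of 1e6 (CPM) with TMM-scaled totals, and the median TMM factors were 1.07 and 0.892. Each time was sampled 1 time per course, and nothing in the labels gives a second culture. The p-values therefore measure the scatter of single libraries round a curve or round pairs of libraries. Bacterium, medium and day of growth change together between the courses and cannot be told apart. In whole worms, fewer cells of a type and less RNA per cell cannot be told apart either. The annotation has 11 exon bases of mthf-1 and 18 of sams-3 under genes of the opposite strand (C06A8.6 and C06E7.4), and the similar neighbours sams-3 and sams-4 may share reads.

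**Figure D1:**
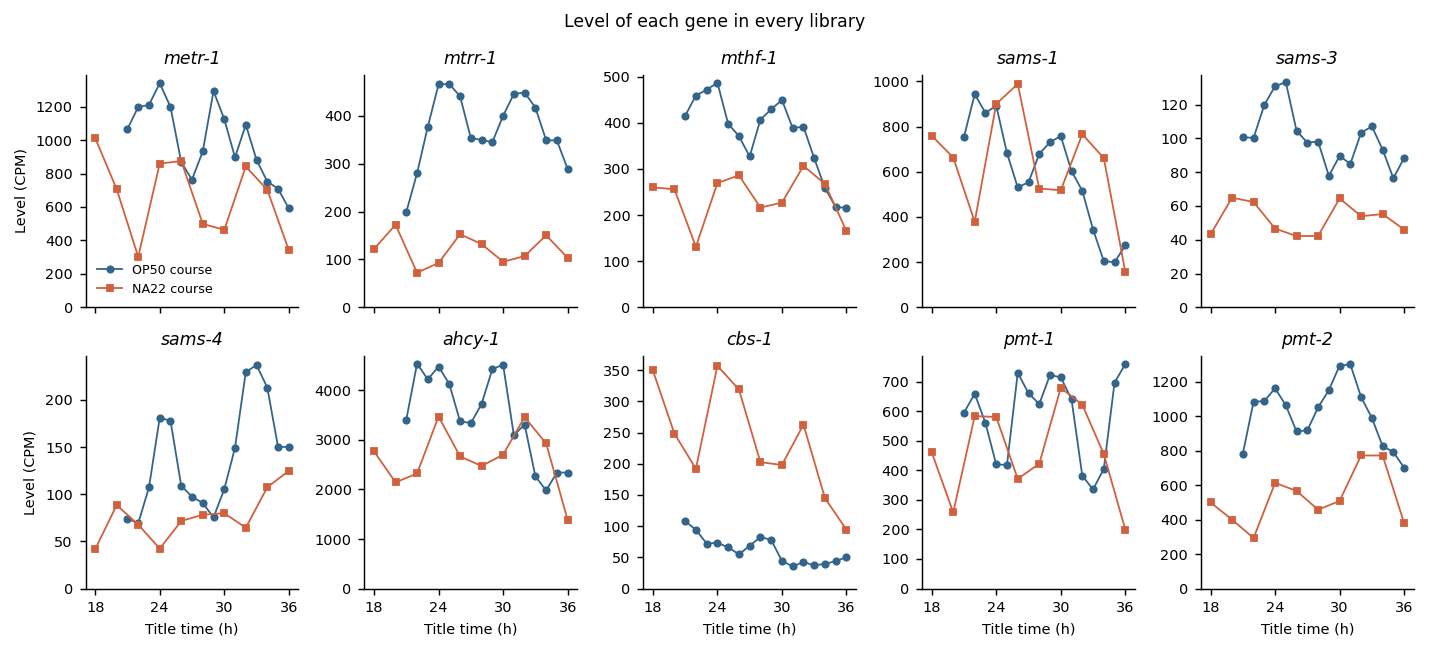
Level (CPM, linear axis from 0) of each gene against title time (h) in the 16 libraries of the OP50 course (blue circles) and the 10 of the NA22 course (orange squares). mtrr-1, sams-3, sams-4 and pmt-2 lay lower and cbs-1 higher in the NA22 course at each of the 8 shared times, while sams-1 crossed between the courses.

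Set on a scale per length (CPM per kilobase of exon), ahcy-1 had the highest level, with a median of 2210 in the OP50 course and 1750 in the NA22 course. It lay above the next gene, pmt-2 (medians 671 and 320), in 16 of 16 and 10 of 10 libraries. Below ahcy-1, the order was not firm throughout. In the OP50 course, pmt-1 (336) exceeded sams-1 (284) in 10 of 16 libraries and sams-1 exceeded metr-1 (253) in 9 of 16. On NA22, pmt-2 exceeded sams-1 (293) in 6 of 10 libraries, and sams-1 exceeded pmt-1 (244) in 7 of 10. The levels of pmt-1 leave out a second row under its sequence name, described below. If that row holds further reads of pmt-1, the place of pmt-1 relative to pmt-2 and sams-1 could change. cbs-1 was the lowest in the OP50 course, with 26.3 CPM per kilobase and below sams-3 (49.7) in 16 of 16 libraries. In the NA22 course cbs-1 stood at rank 6, with a median of 98.3, above mthf-1 (94.2) in 8 of 10 libraries. mtrr-1 (168 in the OP50 course and 52.7 in the NA22 course) stood at rank 6 in the OP50 course and rank 8 in the NA22 course. sams-4 (68.4 and 39.7) and sams-3 (49.7 and 25.2) had lower medians than sams-1 in both courses. In the OP50 library of 34 h, however, sams-4 (112.9) lay above sams-1 (90.76).

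The design implies a comparison of the courses at the 8 shared times from 22 to 36 h, and cbs-1 stood apart from the other genes there. cbs-1 was higher in the NA22 course and mtrr-1 lower, each by more than 3 times. metr-1, mtrr-1, mthf-1, sams-3, sams-4 and pmt-2 passed the test as lower, while sams-1, ahcy-1 and pmt-1 did not pass. A gene was called different at an adjusted p under 0.05 (edgeR's quasi-likelihood test, Benjamini-Hochberg over all genes) and a log2 difference of 1 or more. By that rule 1 of the 10 genes was higher, against 1.79% of the 15639 genes tested, and 1 was lower, against 7.74%. By the adjusted p alone, 1 was higher (12.2% of all genes) and 6 were lower (16.9% of all genes). The median difference over the 10 genes was -0.75 on the log2 scale, beside -0.13 over all genes tested.

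Because molting genes peak later by title in the NA22 course, the NA22 course was also set against OP50 libraries titled 3 h earlier, in 7 pairs. There the count was again 1 higher (4.86% of the 15591 genes tested) and 2 lower (8.06%), and by the adjusted p alone 1 higher (23.9%) and 8 lower (27.4%). The median over the 10 genes was -0.69 and over all genes -0.06. The comparisons share NA22 libraries, so that their values stand side by side and do not support each other.

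**Figure D2:**
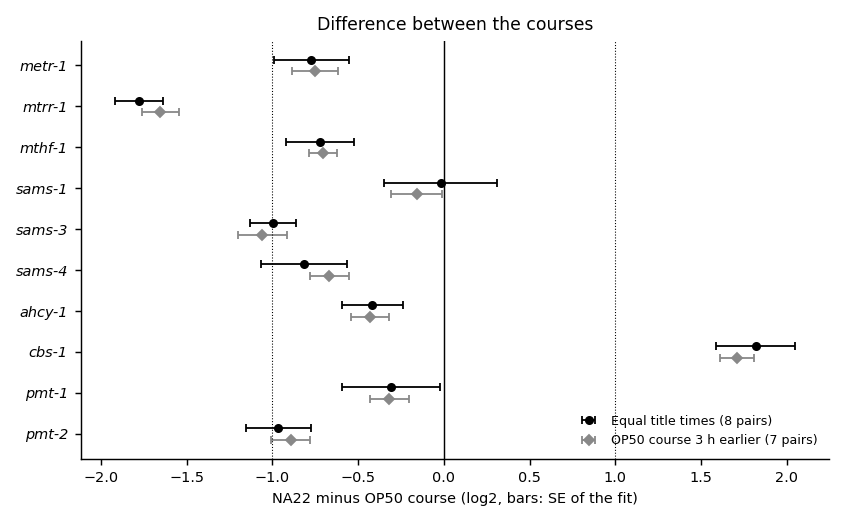
Difference between the courses (NA22 minus OP50, log2) for each gene, with the standard error of the fit as bars. Black circles show the 8 pairs of equal title time and grey diamonds the 7 pairs with the OP50 course taken 3 h earlier. Dotted lines mark a difference of 1. cbs-1 is the only one of the 10 genes to the right of 0 in both comparisons, and mtrr-1 lies farthest to the left.

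metr-1 encodes methionine synthase, which joins the folate methyl group to homocysteine. Its level ran from 591 to 1340 CPM in the OP50 course (median 999) and from 302 to 1012 CPM in the NA22 course (median 704). The lowest NA22 value fell at 22 h and the highest OP50 value at 24 h, and the ranges overlapped. At shared times metr-1 was lower in the NA22 course by 0.77 ± 0.22 on the log2 scale (1.71-fold, SE of the fit, adjusted p = 0.0285 with edgeR, lower in 7 of 8 pairs), and the 3 h pairing gave -0.75 ± 0.13 (adjusted p = 0.00116).

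mtrr-1 encodes methionine synthase reductase, which restores the B12 cofactor of methionine synthase. It ran from 199 to 467 CPM in the OP50 course (median 366) and from 72.2 to 173 CPM in the NA22 course (median 114.3). Over the shared times the lowest OP50 library, 280 CPM at 22 h, lay above the highest NA22 library, 153 CPM at 26 h. The means were 378 CPM in the OP50 course and 113 CPM in the NA22 course, a log2 difference of -1.78 ± 0.14 (3.43-fold, adjusted p = 0.000178 with edgeR, 8 of 8 pairs). With the OP50 course taken 3 h earlier it was -1.65 ± 0.11. All NA22 values lay below all OP50 values for 2 of the 10 genes, mtrr-1 and sams-3, against 2.62% of all genes tested.

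mthf-1 encodes methylenetetrahydrofolate reductase, which supplies the methyl folate. Its 16 OP50 values ran from 216 to 487 CPM (median 395) and its 10 NA22 values from 131 to 307 CPM (median 258). Its difference was -0.72 ± 0.20 at shared times (1.65-fold, adjusted p = 0.0256 with edgeR, lower in 7 of 8 pairs). In the 3 h pairing it was -0.71 ± 0.08 (adjusted p = 0.000111), with no overlap between the 7 and 7 libraries. So the 3 genes of the remethylation arm were all lower in the NA22 course, and mtrr-1 by the most.

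sams-1, the SAM synthetase gene best known for its role in phosphatidylcholine synthesis and fat storage of the worm, did not pass the test between the courses. It ran from 199 to 944 CPM in the OP50 course (median 641) and from 157 to 989 CPM in the NA22 course (median 662). Means at shared times were 600 and 612 CPM, with a log2 difference of -0.02 ± 0.33 (adjusted p = 0.976 with edgeR, lower in 4 of 8 pairs). Against the OP50 course 3 h earlier it was -0.16 ± 0.15 (adjusted p = 0.397). sams-1 had the widest standard error of the 10 genes at shared times, so that a difference of that order was not detectable.

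The paralogs sams-3 and sams-4 were both lower in the NA22 course. sams-3 ran from 76.4 to 133 CPM in the OP50 course and from 42.2 to 64.9 CPM in the NA22 course, without overlap. Its difference was -0.998 ± 0.134 at shared times (adjusted p = 0.00127 with edgeR, 8 of 8 pairs), just under the fold minimum. In the 3 h pairing it was -1.06 ± 0.14, past the minimum. It fell under the minimum again, at -0.97 to -0.98, without the OP50 library of 23 or 25 h or the NA22 library of 26 or 28 h. sams-4 ran from 69.2 to 237 CPM in the OP50 course and from 41.7 to 125 CPM in the NA22 course, with overlap. Its difference was -0.81 ± 0.25 (adjusted p = 0.04 with edgeR, lower in 8 of 8 pairs), and -0.67 ± 0.11 in the 3 h pairing (adjusted p = 0.000822).

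ahcy-1 encodes S-adenosylhomocysteine hydrolase, which removes the by-product of every SAM-dependent methylation. It ran from 1980 to 4541 CPM in the OP50 course (median 3391) and from 1388 to 3471 CPM in the NA22 course (median 2685). The courses overlapped and the difference at shared times was -0.42 ± 0.18 (adjusted p = 0.106 with edgeR, lower in 6 of 8 pairs). In the 3 h pairing the difference was similar in size, -0.43 ± 0.11, and passed (adjusted p = 0.00941, lower in 6 of 7 pairs).

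cbs-1 encodes cystathionine beta-synthase, the entry to transsulfuration, where homocysteine leaves the cycle. It ran from 35.5 to 108 CPM in the OP50 course (median 60.4) and from 94.3 to 357 CPM in the NA22 course (median 226). At shared times the lowest NA22 library, 94.3 CPM at 36 h, lay just above the highest OP50 library, 94.2 CPM at 22 h. Only cbs-1 among the 10 genes had all NA22 values above all OP50 values there, against 3.81% of all genes tested. The means were 60.3 CPM in the OP50 course and 221 CPM in the NA22 course, a difference of 1.82 ± 0.23 (3.53-fold, adjusted p = 0.00102 with edgeR, higher in 8 of 8 pairs). With the OP50 course 3 h earlier it was 1.71 ± 0.10 (adjusted p = 3.54e-06, higher in 7 of 7 pairs), although the ranges then overlapped.

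pmt-1 and pmt-2 encode the phosphoethanolamine methyltransferases, which add the first and the later methyl groups on the way to phosphocholine. pmt-1 ran from 335 to 759 CPM in the OP50 course (median 632) and from 200 to 679 CPM in the NA22 course (median 458). Its difference was -0.31 ± 0.29 at shared times (adjusted p = 0.47 with edgeR) and -0.32 ± 0.11 in the 3 h pairing (adjusted p = 0.037, lower in 5 of 7 pairs). The table holds a second row named ZK622.3, the sequence name of pmt-1, whose counts were 83.6% to 91.8% of those of pmt-1, and its difference was -0.36 ± 0.30. pmt-2 ran from 700 to 1299 CPM in the OP50 course (median 1056) and from 293 to 772 CPM in the NA22 course (median 503). It was lower by 0.97 ± 0.19 at shared times (1.95-fold, adjusted p = 0.00703 with edgeR, lower in 8 of 8 pairs) and by 0.89 ± 0.12 in the 3 h pairing. Of the methylating pair, pmt-2 thus passed in both pairings and pmt-1 in the 3 h pairing alone, and the difference between them is tested below as a ratio.

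Scaling bears on the counts. With total counts as the only scaling, the median of all genes at shared times moved to -0.38, and metr-1 (-1.02), sams-3 (-1.25), sams-4 (-1.07) and pmt-2 (-1.21) also passed the fold minimum. Over all genes, 280 were called higher and 1211 lower at shared times, and 146 and 2231 with total counts. For the 3 h pairing the numbers were 758 and 1256, and 381 and 2326 with total counts. mtrr-1 (-2.03) and cbs-1 (1.57) were called under total counts as well. Among the genes that passed by the adjusted p alone at shared times, the p rose to at most 0.0713 for metr-1, 0.0624 for mthf-1 and 0.0984 for sams-4 over the alternatives tried.

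The next question was whether these genes follow the 8 h molting cycle. Each course was fitted with linear time and an 8 h cosine and sine. The median fitted peak-to-trough difference over the 10 genes was 0.59 on the log2 scale in the OP50 course and 0.88 in the NA22 course, beside 0.60 and 0.56 over all genes tested. By the call rule (adjusted p under 0.05 and at least 1 on the log2 scale), 1 of 10 oscillated in the OP50 course, sams-4, against 22.8% of all 15888 genes tested. The NA22 count was 1 of 10, metr-1, against 21% of 15003. By the adjusted p alone, 8 of 10 passed in the OP50 course (33.9% of all genes) and 3 of 10 in the NA22 course (29.2%). No gene was called in both courses.

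sams-4 swung most in the OP50 course. It went from 69.2 CPM at 22 h to 181 CPM at 24 h, was back at 75.4 CPM at 29 h and reached 237 CPM at 33 h. Its fitted peak-to-trough difference was 1.21 ± 0.13 (adjusted p = 1.47e-05 with edgeR), with the peak at 24.6 h. On NA22 sams-4 spanned 0.89 ± 0.20 (adjusted p = 0.029), under the fold minimum, with the peak at 28.1 h. The other 2 SAM synthetase genes had smaller or less certain cycles. sams-1 spanned 0.86 ± 0.24 in the OP50 course (adjusted p = 0.0298) and 1.26 ± 0.43 in the NA22 course (adjusted p = 0.133), and sams-3 0.39 ± 0.10 (adjusted p = 0.0174) and 0.42 ± 0.19 (adjusted p = 0.278).

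metr-1 gave the largest fitted cycle of the 10 genes in the NA22 course. The spans of sams-1 (1.26 ± 0.43) and pmt-1 (1.19 ± 0.34) lay within the standard error of metr-1, but did not pass the test. metr-1 stood at 302 CPM at 22 h, 874 CPM at 26 h, 463 CPM at 30 h and 842 CPM at 32 h. The fit gave 1.27 ± 0.28 (adjusted p = 0.0263 with edgeR) and a peak at 25.3 h. The call was lost without the library of 22 h, where the span was 0.996, just under the minimum, and without that of 24, 26, 32 or 36 h, where the adjusted p lay at 0.0516 to 0.0567. In the OP50 course metr-1 spanned 0.53 ± 0.16 with an adjusted p of 0.0507. The DESeq2 test called 3 genes in the NA22 course, and periods of 7 and 9 h called 0, without a share over all genes computed.

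Peak times are placed in a window from 24 to 32 h, whose ends are the same point of the 8 h cycle. In the OP50 course mtrr-1 (24.4 h), sams-4 (24.6 h) and sams-3 (24.8 h) were followed by cbs-1 and pmt-1, at 28.2 and 28.6 h. sams-1, ahcy-1, mthf-1, metr-1 and pmt-2 peaked between 30.2 and 31.0 h, and so came next before mtrr-1 when counted round the cycle. Standard errors of these peaks ran from 0.16 h (sams-4) to 0.48 h (ahcy-1). Over the NA22 libraries the last group peaked between 24.2 and 25.3 h, which is 1.94 to 2.50 h later by title when counted round the 8 h cycle. Counted the shorter way round the cycle, mtrr-1, pmt-1 and sams-4 were also later, by 2.35, 2.84 and 3.49 h. sams-3 (-2.88 h) and cbs-1 (-3.69 h) came out earlier by the same count. For shifts as long as those of cbs-1 and sams-4, earlier and later cannot be told apart in an 8 h cycle. Many of these cycles did not pass the test in the NA22 course, and the difference in peak time was not tested for single genes.

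**Figure D3:**
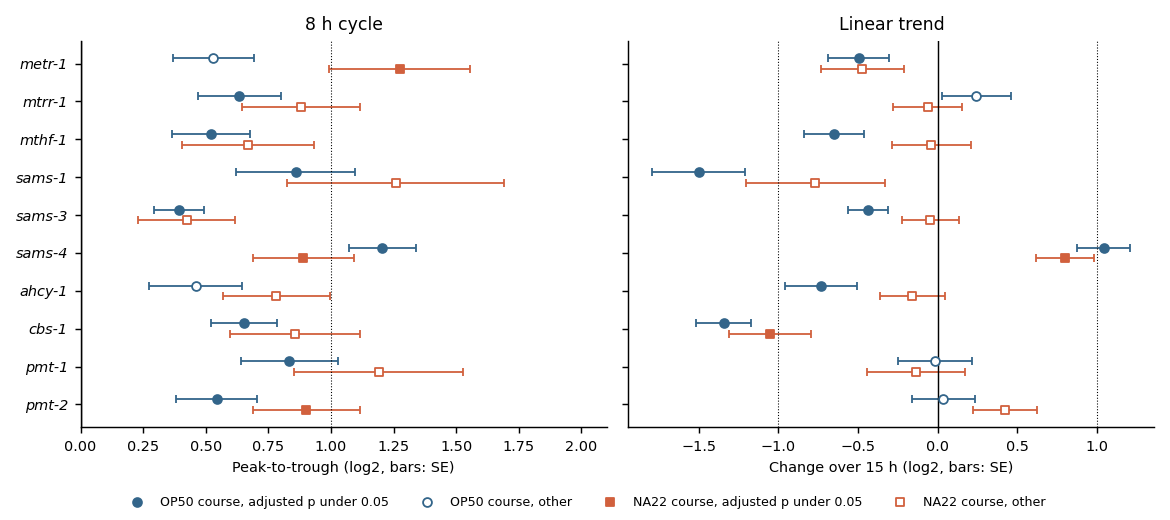
Fitted 8 h peak-to-trough difference (left, log2) and linear change over 15 h (right, log2) of each gene in the OP50 course (blue circles, 16 libraries) and the NA22 course (orange squares, 10 libraries), with standard errors as bars. Filled symbols have an adjusted p under 0.05 and dotted lines mark a size of 1. sams-1 and cbs-1 lie left of -1 in the OP50 course, and sams-4 lies to the right in both courses.

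Beside the cycle, the fits gave a linear change with larval age, which need not be even over the course. In the OP50 course sams-1 and cbs-1 fell and sams-4 rose. By the call rule (adjusted p under 0.05 and a log2 change of 1 or more over 15 h), 1 of 10 rose in the OP50 course against 21.1% of all genes, and 2 of 10 fell against 12.7%. By the adjusted p alone, 1 rose (28.9% of all genes) and 6 fell (19.6%). In the NA22 course, 0 of 10 rose by the edgeR test (16% of all genes) and 1 fell (12.1%). There, 1 of 10 rose by the adjusted p alone (22.9%), 1 by the unadjusted p (25.5%) and 0 with DESeq2 or limma under the full call rule, while 1 fell by the adjusted p alone (23.0%). The median trend over the 10 genes was -0.47 in the OP50 course and -0.10 in the NA22 course, beside 0.05 and -0.06 over all genes.

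sams-1 dropped by 1.5 ± 0.29 on the log2 scale over 15 h in the OP50 course (adjusted p = 0.000506 with edgeR). It held 944 CPM at 22 h, 758 CPM at 30 h and 199 CPM at 35 h. Its NA22 trend was -0.77 ± 0.44 (adjusted p = 0.187), with 661 CPM still at 34 h and 157 CPM at 36 h. cbs-1 fell by 1.34 ± 0.17 in the OP50 course (adjusted p = 6.95e-06) and by 1.05 ± 0.26 in the NA22 course (adjusted p = 0.0101), the only gene of the 10 called for a trend in both. Its NA22 call was lost without the library of 34 h (-0.77, adjusted p = 0.0362) or 36 h (-0.79, adjusted p = 0.0759), and with DESeq2's size factors (-0.97).

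sams-4 rose by 1.04 ± 0.17 in the OP50 course (adjusted p = 9.15e-05 with edgeR) and its NA22 trend, 0.80 ± 0.18, passed the test under the fold minimum (adjusted p = 0.0069). The OP50 value slipped under the minimum, to values from 0.89 to 0.99, when the library of 22, 26, 35 or 36 h was left out. Smaller decreases in the OP50 course passed the test for ahcy-1 (-0.73 ± 0.23), mthf-1 (-0.65 ± 0.19), metr-1 (-0.50 ± 0.19, adjusted p = 0.0426) and sams-3 (-0.44 ± 0.13). The trends of mtrr-1 (0.24 ± 0.22), pmt-1 (-0.02 ± 0.23) and pmt-2 (0.04 ± 0.20) in the OP50 course did not pass.

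Trends were set against each other between the courses by an interaction term over all 26 libraries. None of the 10 genes passed by the adjusted p, where 0.541% of the 16076 genes tested did, and 3 passed by the unadjusted p (mthf-1, sams-3 and ahcy-1), where 13.2% of all genes did. The largest difference was that of sams-1, 0.78 ± 0.49 (NA22 minus OP50, adjusted p = 0.501 with edgeR), followed by mthf-1 at 0.67 ± 0.28 and ahcy-1 at 0.62 ± 0.30. A trend called in one course and not in the other is therefore not shown to differ between them.

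The make-up of the sams-1, sams-3 and sams-4 transcripts varied with time. sams-1 held a median of 73.0% of the sams-1, sams-3 and sams-4 counts in the OP50 course and 81.3% in the NA22 course. In the OP50 course the share went from 84.8% at 22 h to 40.0% at 34 h, and in the NA22 course from 91.0% at 24 h to 47.9% at 36 h. The 5 libraries of the OP50 course from 32 to 36 h lay at 60.8% or below, and every earlier one at 68.7% or above. Among the NA22 libraries only that of 36 h lay as low. The sum of sams-3 and sams-4 was used because it is free of how reads are split between sams-3 and sams-4. It is not free of a split between them and sams-1, and sams-5 was left out of the share. At equal times the share was 10.9 ± 17.4 percentage points higher in the NA22 course (mean ± SD, n = 8 pairs, lower in 3, exact two-sided sign-flip permutation test p = 0.1172). With the OP50 course 3 h earlier it was 6.77 ± 5.07 points higher (n = 7 pairs, lower in 1, exact permutation p = 0.03125). Over the 4 tests of this kind the adjusted p values were 0.1172 and 0.0625, and neither passed.

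pmt-2 outnumbered pmt-1 in most libraries, and their ratio varied with time. The counts of pmt-1 are those of the row of that name, without the row ZK622.3. Whether ZK622.3 holds further reads of pmt-1 was not tested, and if it does, the ratios below are too high. In the OP50 course there were 2.77 pmt-2 counts per pmt-1 count at 24 h, 1.25 at 26 h, 2.95 at 33 h and 0.922 at 36 h. In the NA22 course the ratio lay at 0.502 at 22 h, 1.53 at 26 h, 0.748 at 30 h and 1.90 at 36 h. The median ratio was 1.74 in the OP50 course and 1.16 in the NA22 course. On the log2 scale it was lower in the NA22 course by 0.65 ± 0.95 at equal times (mean ± SD, n = 8 pairs, lower in 6, exact sign-flip permutation p = 0.1016). In the 3 h pairing it was lower by 0.58 ± 0.36 in 7 of 7 pairs, with an exact permutation p = 0.01562, the smallest that 7 pairs can give. Adjusted over the 4 tests, these were 0.1172 and 0.06248, so that a difference of pmt-2 from pmt-1 did not pass.

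**Figure D4:**
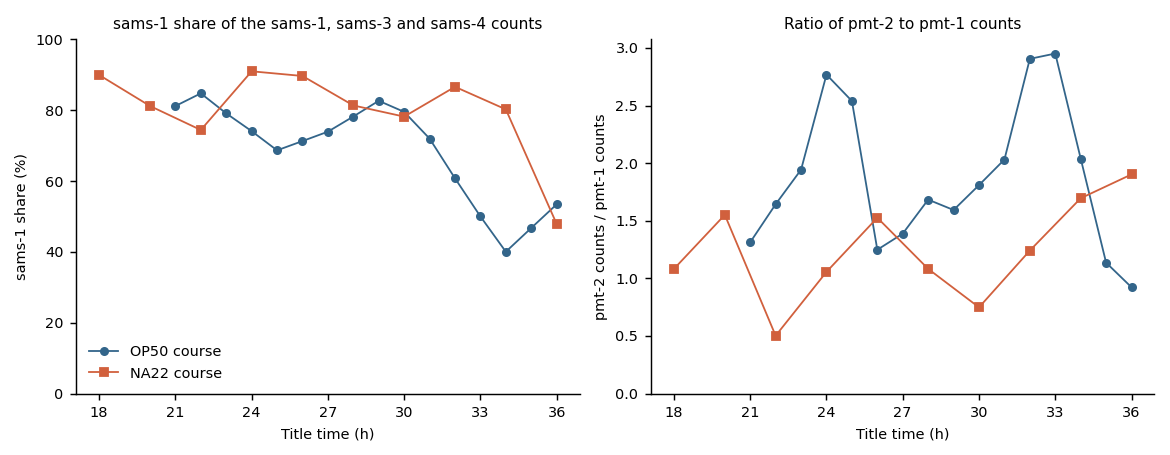
Left, share of sams-1 (%, axis from 0 to 100) among the sams-1, sams-3 and sams-4 counts of each library. Right, ratio of pmt-2 to pmt-1 counts (linear axis from 0). Both are plotted against title time (h) for the OP50 course (blue circles) and the NA22 course (orange squares). The share reached its lowest value at 34 h in the OP50 course and 36 h in the NA22 course, and the ratio had peaks at 24 and 33 h in the OP50 course.

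Some of the genes followed each other from library to library. Pearson's r of log2(CPM + 1) over the 16 OP50 and the 10 NA22 libraries is given as a description, since the libraries share time, age and scaling. In the NA22 course, metr-1, mtrr-1, mthf-1 and pmt-2 had their lowest level at 22 h, and sams-1, ahcy-1, cbs-1 and pmt-1 at 36 h. How much of r in the NA22 course rests on these libraries was not tested. sams-1 followed mthf-1 (0.95 and 0.80), ahcy-1 (0.94 and 0.86) and metr-1 (0.83 and 0.85), and metr-1 followed mthf-1 (0.91 and 0.92). sams-4 ran against cbs-1 (-0.75 and -0.87), pmt-1 (-0.74 and -0.57), sams-1 (-0.55 and -0.62) and ahcy-1 (-0.56 and -0.66). pmt-1 and pmt-2 showed little relation (-0.13 and 0.36), and neither did sams-3 and sams-4 (0.25 and 0.28). mtrr-1, whose enzyme serves methionine synthase, had an r of 0.18 and 0.53 with metr-1. For cbs-1, the only one of the 10 with a called trend in both courses, the 3 genes most like it among 5724 named genes were timm-17B.1 (0.90 and 0.90), gtl-2 (0.89 and 0.88) and enri-1 (0.91 and 0.87).

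Genes of the neighbouring routes were read from lists chosen by function, with the same fits and the same background as above. In the folate cycle 8 of 8 genes were tested, and 0 were called different between the courses by edgeR, with a median difference of 0.14. By the adjusted p alone 2 were higher, and by the unadjusted p 2 were higher (16.4% of all genes tested) and 1 lower (25.5%). alh-3, a formyltetrahydrofolate dehydrogenase gene (0.61 ± 0.19), and gldc-1, of the glycine cleavage system (0.46 ± 0.09), were these 2, named after their values were seen. Oscillation was called for 3 in the OP50 course and 3 in the NA22 course, with dao-3, a methylenetetrahydrofolate dehydrogenase gene, spanning 1.80 and 1.49, and tyms-1, which encodes thymidylate synthase, 1.66 and 1.42.

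Of the 5 genes that handle vitamin B12, 1 was called lower and 1 higher in the NA22 course, and by the adjusted p alone 3 were lower and 2 higher, with a median difference of -0.25. mmaa-1, which serves the B12-dependent mutase of propionate breakdown, had a mean of 365 CPM in the OP50 course and 129 CPM in the NA22 course, a difference of -1.52 ± 0.15 (adjusted p = 0.000381 with edgeR, 8 of 8 pairs). The mutase gene itself, mmcm-1, went the other way under the fold minimum, with 181 and 275 CPM (0.57 ± 0.07, adjusted p = 0.00106, higher in 8 of 8 pairs), and is named after its values were seen. The called higher gene was mrp-5, an exporter that moves heme and B12 out of the intestine (1.20 ± 0.08), named after its values were seen. cblc-1, which processes B12 for both B12 enzymes and was likewise named afterwards, had a difference of -0.95 ± 0.26 (adjusted p = 0.0255), under the fold minimum, and -1.20 ± 0.10 with the OP50 course 3 h earlier.

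In transsulfuration and cysteine use, 2 of 12 genes were called higher in the NA22 course. By the adjusted p alone and by the unadjusted p the number was the same. cth-1, a cystathionine gamma-lyase gene that acts after cbs-1, had means of 17.1 and 63.8 CPM, a difference of 1.99 ± 0.33 (adjusted p = 0.00315 with edgeR, higher in 8 of 8 pairs). Its paralog cth-2 differed by 0.18 ± 0.21 (adjusted p = 0.562). The second called gene was sqrd-1, which encodes sulfide quinone oxidoreductase, with 3.67 and 11.4 CPM (1.57 ± 0.27). Both cth-2 and sqrd-1 were named after their values were seen. Oscillation was called for 5 genes in each course and for 4 in both. The cysteine synthase-like gene cysl-3 spanned 2.32 in the OP50 course and 2.03 in the NA22 course, and its relative cysl-4 was also called in both, at counts that reached 0. cysl-4 and cbs-2, a paralog of cbs-1, rose with age in both courses from counts near 0, so that no fold or span is given for them. cbs-2 went from 9 counts at 21 h to 577 at 36 h in the OP50 course and from 4 counts at 18 h to 810 at 36 h in the NA22 course. cysl-4 had 0 counts in 2 libraries of the OP50 course and 5 of the NA22 course, and at most 154 and 131 counts. sams-5, a further SAM synthetase gene, rose by 4.46 ± 0.29 and 2.91 ± 0.43.

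Of the 15 genes of the choline and ethanolamine route, 14 were tested and 0 were called different at shared times by edgeR. By the adjusted p alone 1 was higher and 2 lower, and by the unadjusted p 2 and 4. ckb-2, a choline kinase gene, oscillated with 2.65 and 3.29, and pcyt-1, which encodes the CTP-dependent enzyme that acts on phosphocholine next, with 1.13 and 1.07. pssy-2, a phosphatidylserine synthase gene, rose by 1.20 ± 0.19 and 1.46 ± 0.16 over 15 h. The 2 lower genes were cept-1 (-0.85 ± 0.16) and ept-1 (-0.77 ± 0.10), phosphotransferase genes of the last step, and the higher one was the choline kinase gene ckb-4 (0.59 ± 0.13), all 3 named after their values were seen.

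SBP-1, the worm SREBP, responds to the supply of phosphatidylcholine, and 8 genes of SBP-1 and lipid synthesis were read beside it. 5 oscillated in the OP50 course, 4 in the NA22 course and 4 in both, among them fasn-1, which encodes fatty acid synthase, with 2.53 and 2.72, the desaturase gene fat-5 with 1.44 and 2.96, and sbp-1 itself with 1.03 and 1.39. sbp-1 did not pass the test between the courses (0.40 ± 0.24, adjusted p = 0.241 with edgeR). The desaturase gene fat-7 was far lower in the NA22 course, with 3 to 18 counts per library against 127 to 534 in the OP50 course and a difference of -5.60 ± 0.39 (adjusted p = 0.000121). The mediator subunit gene mdt-15, named after its values were seen, was higher by 1.08 ± 0.10.

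Among 4 regulators linked to the cycle in worms, 2 were called lower in the NA22 course. nhr-114, a nuclear receptor that switches on methionine cycle genes when the cycle runs low, had means of 121 and 37.5 CPM, a difference of -1.72 ± 0.22 (adjusted p = 0.000991 with edgeR, 8 of 8 pairs). nhr-68, a receptor of the B12-dependent propionate response, was the second, with -1.13 ± 0.12. Its partner nhr-10 differed by -0.23 ± 0.22 (adjusted p = 0.493 with edgeR). Both nhr-68 and nhr-10 were named after their values were seen. Of the 10 SAM-using methyltransferase genes, from histone to coenzyme Q methylation, 0 were called different at shared times by edgeR, and 3 passed as higher in the NA22 course by the adjusted p alone, with sizes from 0.22 to 0.51 (set-2, met-2 and set-25, named after their values were seen).

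**Figure D5:**
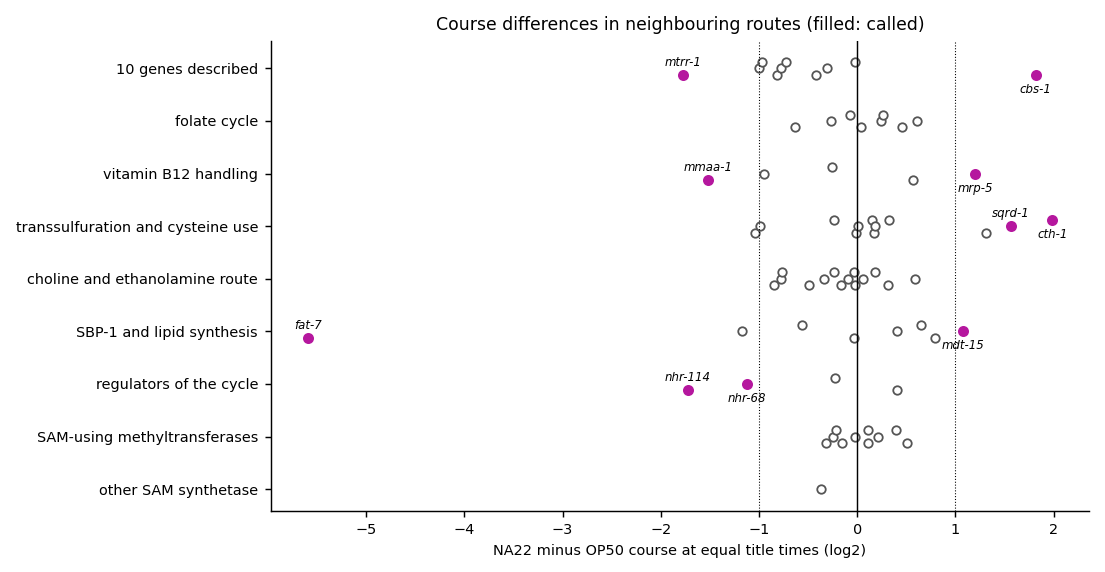
NA22 minus OP50 at equal title times (log2) for the 10 genes and for each list of neighbouring genes, 1 point a gene. Filled points are called and labelled, and dotted lines mark a size of 1. mtrr-1, mmaa-1, nhr-114, nhr-68 and fat-7 lie to the left, and cbs-1, cth-1, sqrd-1, mrp-5 and mdt-15 to the right.

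Markers of tissues moved with the courses and with age, and their part in these results was not tested. At shared times, 1.79% of all genes tested were called higher in the NA22 course and 7.74% lower. By the adjusted p alone these shares were 12.2% and 16.9%. With the OP50 course 3 h earlier, 4.86% were called higher. A rise was called for 21.1% of all genes in the OP50 course and 16% in the NA22 course, and a fall for 12.7% and 12.1%. No share was computed for a trend called in both courses. The summed level of 7 intestine markers ran from 2737 to 4012 CPM in the OP50 course and from 2878 to 5444 CPM in the NA22 course at shared times, and 1 of 7, mtl-2 (-2.56), was called lower in the NA22 course. Under the adjusted p alone 1 of 7 was lower and 1 higher, asp-1 (0.55), and the median over the 7 was 0.23. The 6 body wall muscle markers summed to 5343 to 7965 CPM and to 9901 to 15130 CPM, without overlap, with 1 of 6 called higher and 5 of 6 higher by the adjusted p alone. The 6 hypodermis markers summed to 110 to 2186 CPM and to 132 to 5889 CPM, with 0 called different by edgeR, also by the unadjusted p. Over age, 8 of 8 germline markers rose in both courses, from 315 to 1154 CPM over the OP50 course and 274 to 1555 CPM over the NA22 course (lowest and highest library), and 5 of 7 neuron markers fell in both. The summed sperm markers ran from 3.11 to 340 CPM in the OP50 course and from 0.791 to 445 CPM in the NA22 course, with 2 of 5 at 0 in some library of each. The summed oocyte markers ran from 25.7 to 451 CPM and from 7.98 to 267 CPM. At shared times 5 of 5 oocyte markers were lower in the NA22 course by the adjusted p alone (median -0.92), with egg-1 called. The 5 sperm markers had a median of -1.11, with 1 called lower. Among these 5, msp-3 did not pass the low count filter of the NA22 time fit. Its means at shared times were 0.784 CPM in the OP50 course and 0.361 CPM in the NA22 course. Of the 8 germline markers 3 were higher and 1 lower by the adjusted p alone (median 0.29). With the OP50 course 3 h earlier, 4 of 8 germline and 2 of 5 sperm markers were called higher, and the 5 oocyte differences lay between -0.265 (oma-2) and 0.18 (puf-5).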

How the data were processed

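The authors deposited a table of raw counts per gene, 1 column per library, and a table of log2 values, per the file headers. The authors' log2 values could be rebuilt to within 5e-05 from the counts, brought to the average total of the respective course, after adding 8. Per the labels' protocols, Tri-Reagent was used for RNA and ScriptSeq v2 for the libraries. The sources used here give no aligner, counting tool, strand setting or genome build, so no coordinates are printed.

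Gene names matched 18778 of 20182 rows. Exon lengths are those of Ensembl release 115 (WBcel235). Counts were fitted with edgeR 4.0.16 in R 4.3.3 (TMM, robust quasi-likelihood F tests, Benjamini-Hochberg over all genes fitted; genes reaching 10 counts, at a median-sized library, in 3 or more libraries), with courses compared in pairs as a block. Each model was run on simulated independent libraries with large planted changes, as a check of the code alone. Neighbouring times can deviate together, which neither the fits nor the simulation allow for. Alternatives were DESeq2 1.42.0, limma 3.58.1 on the log2 values, other scalings, filters, fold minimums, periods and pairings, and each library left out.

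The 10 genes, the lists and the 3 h pairing were chosen with earlier results of these data known. From each list, the rule named up to 2 genes oscillating in both courses, up to 2 with a trend in both and 1 with the largest called difference at shared times. For each of the 10 genes called in both courses, it named the 3 closest in r. The text marks other genes of the lists as named after their values were seen. The tissue markers fell outside this rule, and those given by name were also picked after their values were seen.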

Additional observations from a re-analysis of the deposited data

Results flagged for a closer look

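In the NA22 course, 1 of the 12 series of 10 libraries examined (the levels of the 10 genes, the sams-1 share and the ratio of pmt-2 to pmt-1) held a library far from the others. The sams-1 share of the sams counts was 47.88% at 36 h, and the nearest other library, that of 22 h, had 74.4%. That gap was 0.616 of the whole range, above the critical value of Dixon's test for 10 libraries. Chance flags about 1 in 20 such series, and the libraries differ in time.

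The count table holds a row named ZK622.3, the sequence name of pmt-1, beside the row of pmt-1. Its counts were a median of 87.82% of those of pmt-1 in the OP50 course and 84.31% in the NA22 course. Its 8 h peak-to-trough difference was 0.88 (adjusted p = 0.00777 with edgeR) and 1.18 (adjusted p = 0.0677), with peaks at 28.5 and 31.4 h, and its difference with the OP50 course 3 h earlier was -0.39 ± 0.11. Whether the same reads were counted in both rows was not tested.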

How the results depend on the processing

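Depth was no limit for these genes, as each had at least 768 counts in every library, but no time was sampled again. Over the alternatives tried, the difference between the courses kept its direction for the 10 genes in both pairings except sams-1, and mtrr-1 and cbs-1 were called in each. At shared times mtrr-1 ranged from -2.03 to -1.68 and cbs-1 from 1.56 to 1.96. The cause of the changes below was not tested, except that the fold minimum acts by its own construction.

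A fold minimum of 0.5 gave 7 genes oscillating and 4 falling in the OP50 course, 3 oscillating and 1 rising in the NA22 course, and 6 lower in the NA22 course in either pairing. With no fold minimum these counts were 8, 6, 3, 1, 6 and 8, against 33.9%, 19.6%, 29.2%, 22.9%, 16.9% and 27.4% of all genes tested. Shares of all genes were not computed for a minimum of 0.5, nor for the time fits under the settings below. Those counts therefore have no background beside them. Total counts gave 0 rising in the OP50 course, 2 oscillating in the NA22 course, and 5 lower at shared times and 4 in the 3 h pairing. Over all genes, total counts called 2231 of 15639 lower at shared times and 2326 of 15591 in the 3 h pairing. limma on the deposited log2 values gave 0 rising in the OP50 course, 2 oscillating in the NA22 course and 5 lower at shared times. Over all genes, limma called 1187 of 15639 lower there. Quadratic time gave 0 rising in the OP50 course, and 3 oscillating and 2 falling in the NA22 course. The DESeq2 test gave 3 oscillating and 0 falling in the NA22 course, DESeq2's size factors 0 falling, a period of 7 h 0 oscillating and 0 falling, and a period of 9 h 0 oscillating in the NA22 course.

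Leaving out single libraries moved the count rising in the OP50 course between 0 and 1, oscillating in the NA22 course between 0 and 3, falling in the NA22 course between 0 and 1, lower at shared times between 1 and 3, and lower in the 3 h pairing between 1 and 2. The count lower at shared times was 2 or 3 without the OP50 library of 22, 30, 32 or 34 h or the NA22 library of 22, 30, 32 or 34 h. The count oscillating in the NA22 course was 2 without the library of 18, 20, 30 or 36 h and 3 without that of 28 h. No share of all genes was computed with single libraries left out.

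Only trends that did not pass turned sign. In the OP50 course, pmt-1 (0.001 with a period of 7 h and 0.063 with quadratic time) and pmt-2 (-0.097 with total counts, -0.088 and -0.017 with periods of 7 and 9 h, -0.099 with limma) did so. In the NA22 course, DESeq2's size factors or test gave 0.019 for mtrr-1, 0.043 for mthf-1 and 0.036 for sams-3 (0.035 with the test). A period of 7 h gave 0.024 for mtrr-1, 0.188 for mthf-1, 0.006 for ahcy-1 and 0.018 for pmt-1, and a period of 9 h 0.054 for sams-3. Quadratic time turned the trend difference of metr-1 to -0.058. With single libraries left out, the OP50 trends ranged from -0.24 to 0.19 for pmt-1 and -0.14 to 0.21 for pmt-2. The NA22 trends then ranged from -0.26 to 0.25 for mtrr-1, -0.24 to 0.25 for mthf-1, -0.13 to 0.15 for sams-3, -0.23 to 0.20 for ahcy-1 and -0.32 to 0.28 for pmt-1.

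The course difference of sams-1, near 0, turned to 0.008 with DESeq2's size factors or test and 0.019 with no low count filter, and ranged from -0.24 to 0.19 with single libraries left out. The sams-1 share was 6.77 points higher and the log2 ratio of pmt-2 to pmt-1 -0.58 with the OP50 course 3 h earlier, where the raw exact p passed. Leaving out single pairs at shared times moved the ratio between -0.89 (without the pair of 36 h, exact p = 0.0469) and -0.49. The courses were paired by title time, equal or shifted, and an alternative at shared times left out the pairing. By replicate number, no paired analysis was possible because the labels give no such numbers.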
